A study of Mus musculus with 6 samples.

Results

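The 44 genes described here encode the machinery that licenses replication origins, opens and copies DNA, supplies nucleotides and histones, and drives entry into S phase through cyclin E and E2F. They were given as a list of names, set with earlier results of these data known, and all 44 were found among the 37620 rows of the deposited gene table. All 44 also passed the filter on low counts, so they are 44 of the 16023 genes tested. The 6 libraries were made from polyA RNA of mouse embryonic stem cells (ESCs) of the E14 line (strain 129/Ola), 3 from wild-type cells and 3 from cells carrying Ube2d3-S138A. UBE2D3 is a ubiquitin-conjugating enzyme, and in the mutant an alanine replaces a serine near its C-terminus. All cells were grown in 15% FBS, and both groups share the E14 background with no other allele or treatment named. The mutant cells were made by CRISPR/Cas9 editing and selected as a clone, so the effect of the allele and that of the clone cannot be told apart. The labels do not say whether the 3 libraries of a genotype came from separate cultures, so p-values measure only the spread between these libraries, which may be technical.

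Origins are licensed in G1, when the origin recognition complex (ORC), CDC6 and CDT1 load the MCM2 to MCM7 ring onto DNA, and geminin later blocks further loading. At the G1/S transition cyclin E with CDK2 and the E2F factors promote the switch to S phase, in which CDC45 and GINS activate the ring and the polymerases copy the template. Mouse ESCs are known for a short G1 and for high cyclin E and CDK2 activity. In RNA from a whole culture, fewer cells in a phase and less RNA per cell cannot be told apart. The paper reports that S138A ESCs grew normally and that their cell cycle profiles were not overtly altered. Whether the cultures sequenced here were the ones measured is not stated.

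Many of these genes are known E2F targets, so the starts of the genes were searched for E2F letters. The RefSeq promoter table of GRCm38.p6, which holds 250 bases before and 50 after each start, had an entry for 36 of the 44 genes. The letters TTTCCCGC, TTTCGCGC, TTTGCCGC and TTTGGCGC were read on both strands, and a gene counted if any of its entries had a match. They were found in 15 of the 36 genes (41.7%) and in 2.6% of the 27025 genes of the table. The CHR letters TTTGAA were in 16.7% against 20.2%, and CCAAT was in 63.9% against 41.1%. These are matches of letters and no measurement of binding. Overlapping matches were counted as 1 gene with a match. Windows upstream of the start are shown for 3 genes that were lower in S138A with the replicate block described further on (Cdc6, Orc1 and Cdk2) and for 2 ring subunits whose groups overlapped (Mcm5 and Mcm6). Each is printed on the strand of its gene, with E2F letters or their reverse complement in capitals.
Cdc6, chr11:98907983-98908050, plus strand: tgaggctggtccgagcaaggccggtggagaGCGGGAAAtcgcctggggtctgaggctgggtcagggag
Orc1, chr4:108579397-108579453, plus strand: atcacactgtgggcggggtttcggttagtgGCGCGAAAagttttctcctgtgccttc
Cdk2, chr10:128705154-128705221, minus strand: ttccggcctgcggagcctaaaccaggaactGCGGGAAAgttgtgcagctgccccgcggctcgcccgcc
Mcm5, chr8:75109326-75109397, plus strand: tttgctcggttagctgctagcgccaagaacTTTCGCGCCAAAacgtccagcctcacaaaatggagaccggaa
Mcm6, chr1:128359715-128359845, minus strand: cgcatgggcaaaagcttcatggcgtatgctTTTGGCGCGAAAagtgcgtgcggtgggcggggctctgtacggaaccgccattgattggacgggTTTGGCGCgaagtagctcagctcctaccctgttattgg
In Mcm5 and in the first stretch of Mcm6, a match on each strand overlaps the other. The letters were thus present both in some genes called lower with the block and in genes not called. They were absent from the entries of Mcm10, Orc2, Orc6, Prim1, Pcna, Tk1 and Ccne1, also called lower with the block. Gins1, called lower too, had no entry.

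The 6 libraries held 33227593 to 37169770 counts, and levels are given as CPM, which are counts relative to library size, here with TMM factors that correct for differences in composition. The first principal component (57.2% of the variance) set wild-type 3 and the S138A library called C against the remaining 4, and the second (25.6%) separated the genotypes. The log2 ratio of each gene was therefore also computed within the set of wild-type 1 and 2 with S138A A and B, and between wild-type 3 and S138A C. Ube2d3 itself had a log2 fold change of -0.06 (SE 0.26, edgeR adjusted p = 0.945), and a gene count does not check a change of 1 amino acid. The 8 ESC markers summed to 6508 to 7302 CPM in wild-type and to 6634 to 7370 CPM in S138A libraries, so both genotypes had the labelled cell type's markers. The 7 markers of primitive endoderm summed to 17.8 to 21.7 CPM in wild-type and to 20.9 to 27.8 CPM in S138A. The 3 of 4 neural markers in the table summed to 104 to 197 CPM and to 87.2 to 217 CPM. The 8 fibroblast markers summed to 43.0 to 72.6 CPM in wild-type and to 79.1 to 115 CPM in S138A, without overlap, with Col1a1 (25.9 ± 8.85 and 60.5 ± 19.8 CPM) and Thy1 (11.1 ± 0.174 and 22.6 ± 5.33 CPM; SD, n = 3) carrying the difference. Col1a2 (10.9 and 9.08 CPM) and Dcn had lower means in S138A, Dcn was below 1 CPM in each library, and Lum was at 0 in 5 of 6. The part of these genes' difference in the values below was not tested.

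The comparison asks whether the replication and G1/S transcripts differ between S138A and wild-type ESCs. Most of the 44 genes had slightly lower means in S138A. The mean was lower for 34 genes (77.3%), against 47.6% of all genes tested, and the median log2 fold change was -0.14, against 0.02 for all genes. The changes ran from -0.53 for Cdc6 to 0.31 for E2f2. None of the 44 was called by edgeR's quasi-likelihood test at an adjusted p under 0.05, and none of the 16023 genes was (0.0%). Limma-voom also called 0 of the 44. At an unadjusted p under 0.05 edgeR gave 7 of the 44 (15.9%), close to the 14.2% of all genes. DESeq2 called 4 genes lower, Cdc6, Gins1, Prim1 and Cdk2 (9.09% of 44, against 2.55% of the 14775 genes with an adjusted p), and 0 higher (against 2.84%).

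**Figure D1:**
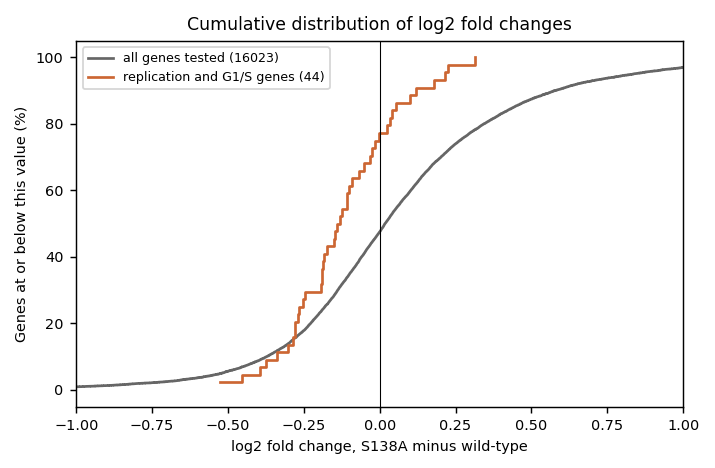
Cumulative percentage of genes (vertical axis) at or below each log2 fold change of S138A minus wild-type (horizontal axis, shown from -1 to 1), for the 44 replication and G1/S genes and the 16023 genes tested. The curve of the 44 genes lies to the left around its median of -0.14 and is narrower than that of all genes, whose median is 0.02.

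The 3 libraries of each genotype did not overlap for 12 of the 44 genes. Lower in S138A were 10 (22.7%, against 10.9% of all genes): Orc6, Cdc6, Gmnn, Gins1, Prim1, Prim2, Pole, Rfc1, Tk1 and Cdk2. Mcm2 and E2f2 were higher (4.55%, against 11.3%). With the final digit of the column names as a replicate block, edgeR called 11 genes lower (25%, against 9.13% of all genes) and E2f2 higher (2.27%, against 10.7%). The labels state no such pairing, so all results with the block rest on an assumed design. The 11 were Orc1, Orc2, Orc6, Cdc6, Mcm10, Gins1, Prim1, Pcna, Tk1, Ccne1 and Cdk2, of which 6 were also among the 10 without overlap. Within the library sets, 31 genes (70.5%) were lower in S138A in both, against 33.9% of all genes, and 8 (18.2%) were higher in both, against 36.1%.

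**Figure D2:**
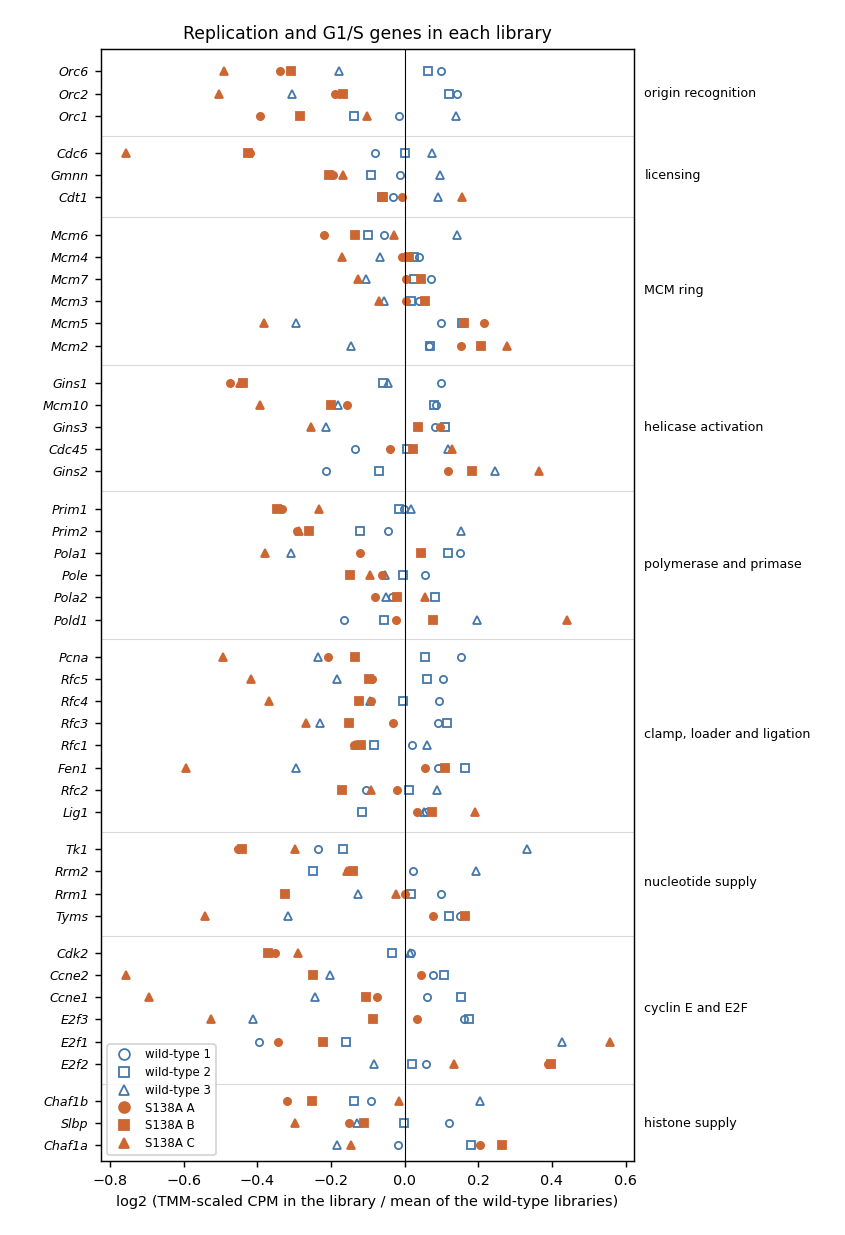
Level of each of the 44 genes in each library, as the log2 of its TMM-scaled CPM over the mean of the wild-type libraries (horizontal axis), with genes grouped by role. Open blue marks are wild-type and filled orange marks S138A libraries, and the triangles, wild-type 3 and S138A C, often lie on the same side of the other libraries of their genotype.

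The size of the difference in the summed level depended on scaling. The 44 genes together took 0.626% ± 0.003 of the counts in wild-type and 0.626% ± 0.003 in S138A libraries (SD, n = 3 each). After TMM scaling the sum was 6452 ± 284 CPM in wild-type and 6085 ± 288 CPM in S138A, a ratio of 0.943. With library totals only, the ratio was 0.999, the median of the 44 genes was -0.05 and that of all genes tested was 0.10. Lower in S138A were then 28 of the 44 genes and 5887 of the 16023 genes tested. The 44 genes were thus lower relative to the median gene under both scalings, while their share of all counts was nearly equal.

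The 3 genes of origin recognition among the 44, Orc1, Orc2 and Orc6, were lower in S138A in both library sets. Orc6, the smallest ORC subunit, was at 59.9, 58.4 and 49.4 CPM in wild-type 1 to 3 and at 44.3, 45.2 and 39.8 CPM in S138A A to C. All 3 S138A libraries lay below all wild-type libraries. Its log2 fold change was -0.38 (SE 0.12), with an edgeR adjusted p of 0.247 and of 0.016 with the replicate block. Orc1, the large ATP-binding subunit, was at 85.6, 78.7 and 95.3 CPM in wild-type and at 65.9, 71.0 and 80.7 CPM in S138A. S138A C lay above wild-type 2, so the groups overlapped, and the log2 fold change was -0.25 (SE 0.12, edgeR adjusted p = 0.403, and 0.0495 with the block). Orc2 was at 113 ± 18.7 CPM in wild-type and 93.5 ± 11.8 CPM in S138A (SD, n = 3), with a log2 fold change of -0.28 (edgeR adjusted p = 0.481, and 0.031 with the block). Exons of Orc2 share 29.8% of their bases with Nif3l1 on the opposite strand, and how strand was set in counting is not stated, so its counts are uncertain. Of the 44 genes, 16 share exon bases with another counted gene, and only the 4 above 20% are marked in the text. The others, such as Orc1 (10.8%) and Ccne2 (17.4%), have the same limit for a smaller part of their bases.

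Among the licensing factors, Cdc6 had the lowest log2 fold change of the 44 genes. CDC6 is the ATPase that joins ORC to recruit the ring. Cdc6 was at 97.8, 103 and 109 CPM in wild-type and at 77.2, 76.9 and 61.1 CPM in S138A. Every S138A library was below every wild-type library, and S138A C was the lowest of all. The log2 fold change was -0.53 (SE 0.12), with an edgeR adjusted p of 0.191, of 0.016 with the block and of 0.009 by DESeq2. The log2 ratio was -0.38 in the 4 libraries without wild-type 3 and S138A C, and -0.83 between those 2. Gmnn, which encodes geminin, the inhibitor of CDT1, was at 39.6, 37.4 and 42.6 CPM in wild-type and at 34.8, 34.6 and 35.5 CPM in S138A. Its groups did not overlap either, with a log2 fold change of -0.19 (SE 0.10, edgeR adjusted p = 0.448, and 0.121 with the block).

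Cdt1, whose product brings the ring to origins with CDC6, was at 164 ± 9.21 CPM in wild-type and 168 ± 13.3 CPM in S138A (SD, n = 3). The groups overlapped, and the log2 fold change of 0.03 was smaller than its SE of 0.10. The ratio of Cdt1 to Gmnn per kilobase was 2.12 ± 0.039 in wild-type and 2.46 ± 0.160 in S138A, and that of Cdc6 to Cdt1 was 0.299 ± 0.012 and 0.205 ± 0.040 (SD, n = 3). Both ratios were chosen after the values were seen and have no test.

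**Figure D3:**
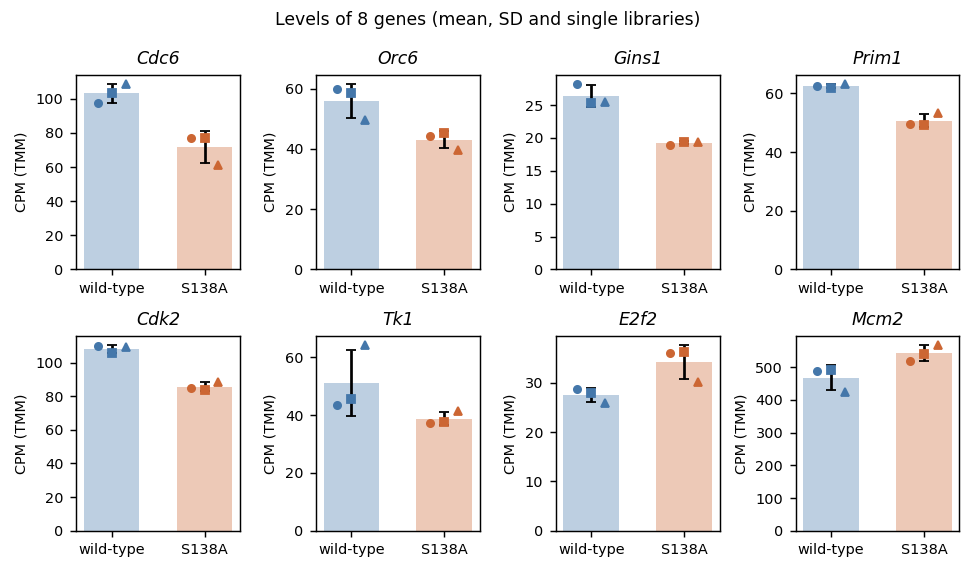
TMM-scaled CPM of 8 genes (vertical axes, starting at 0) in wild-type and S138A ESCs, with bars for means, error bars for SD (n = 3) and 1 mark per library. S138A libraries lie below wild-type libraries for Cdc6, Orc6, Gins1, Prim1, Cdk2 and Tk1, and above them for E2f2 and Mcm2.

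The ring subunits other than Mcm2 overlapped between genotypes. Mcm2 was at 489.6, 491 and 423 CPM in wild-type and at 520.0, 540.2 and 567 CPM in S138A. The S138A libraries were all above the wild-type libraries, and S138A C was the highest. The log2 fold change was 0.21 (SE 0.10, edgeR adjusted p = 0.398, and 0.099 with the block). It was 0.11 without wild-type 3 and S138A C and 0.42 between these 2. Of the other 5, Mcm6 had a log2 fold change of -0.13 (SE 0.11) and Mcm4 of -0.05 (SE 0.09). Mcm3, Mcm5 and Mcm7 lay between -0.03 and 0.02, and the sign of each of these 3 and of Mcm4 changed with scaling or with 1 library left out. Mcm5 was lower in wild-type 3 (280.2 CPM) and S138A C (263.9 CPM) than in the other 4 libraries (368 to 399 CPM).

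The proteins of the ring are used in equal numbers, which makes the balance of their RNA of interest. Per kilobase of the longest coding transcript, Mcm2 made up 18.3% ± 0.47 of the 6 subunits in wild-type and 21.0% ± 1.93 in S138A (SD, n = 3). In single libraries the share of Mcm2 was 18.5%, 18.7% and 17.8% for wild-type 1 to 3, against 19.7%, 20.1% and 23.2% for S138A A to C, without overlap. The shares of Mcm4 (16.2% to 16.8% against 15.2% to 15.8%) and Mcm7 (27.4% to 28.0% against 26.5% to 27.1%) were lower in S138A, also without overlap. Shares of a whole depend on each other, so a higher share of Mcm2 lowers the rest. Mcm7 had the highest share, 27.7% and 26.8%, and Mcm6 the lowest, 7.29% and 6.57%. The size of this gap rests on the lengths used. In wild-type cells the highest over the lowest mean level was 3.82 with the longest coding transcripts and 11.9 with the median length over coding transcripts. Without division by length the share of Mcm2 was 18.7% and 21.4%. Its share with the median lengths was not computed and may differ.

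**Figure D4:**
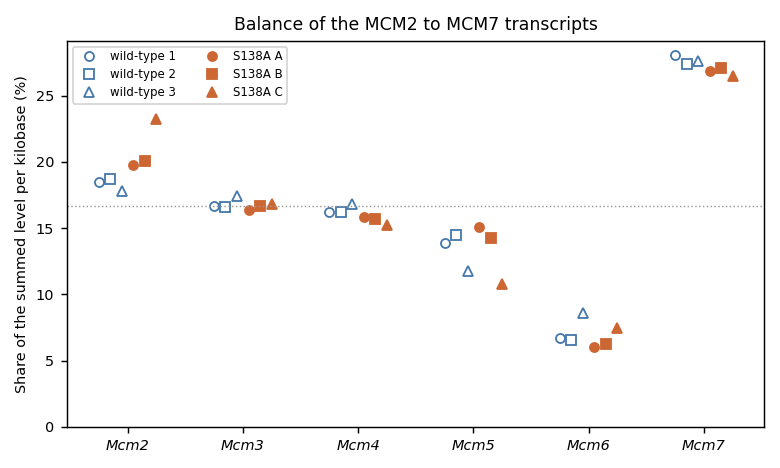
Share of each ring subunit in the summed level per kilobase of the 6 (vertical axis, percent), with 1 mark per library, and the dotted line at equal shares. Mcm2 is higher in the 3 S138A libraries (19.7% to 23.2%) than in the 3 wild-type libraries (17.8% to 18.7%), and Mcm5 and Mcm6 are set apart in wild-type 3 and S138A C.

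Of the 5 genes that activate the helicase, 3 had lower and 2 had higher means in S138A. Gins1, a GINS subunit, was at 28.2, 25.3 and 25.5 CPM in wild-type and at 19.0, 19.4 and 19.3 CPM in S138A. The S138A values were nearly equal and all below wild-type. The log2 fold change was -0.45 (SE 0.11), with an edgeR adjusted p of 0.198, of 0.016 with the block and of 0.003 by DESeq2. Mcm10, whose product acts at the start of unwinding, was at 210.3 ± 21.3 CPM and 177 ± 15.2 CPM (SD, n = 3), with a log2 fold change of -0.25 (SE 0.12, edgeR adjusted p = 0.404, and 0.035 with the block). Gins2, another GINS subunit, was at 34.8 ± 5.8 and 40.7 ± 3.66 CPM with overlap, a log2 fold change of 0.23 (SE 0.15, edgeR adjusted p = 0.542). Its exons share 67.3% of their bases with Gse1 on the opposite strand, so its counts are uncertain. Gins3 (-0.03) and Cdc45 (0.04) had log2 fold changes below their SEs of 0.15 and 0.12.

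Of the polymerase and primase genes, the primase pair differed most. Prim1, the catalytic subunit that makes RNA primers, was at 62.4, 61.8 and 63.3 CPM in wild-type and at 49.6, 49.1 and 53.2 CPM in S138A. The wild-type values were close to each other and all above S138A. Its log2 fold change was -0.30 (SE 0.09), with an edgeR adjusted p of 0.229, of 0.025 with the block and of 0.019 by DESeq2. Prim2, the large primase subunit, was at 26.6, 25.2 and 30.6 CPM and at 22.4, 23.0 and 22.5 CPM, also without overlap, with a log2 fold change of -0.28 (SE 0.12, edgeR adjusted p = 0.350, and 0.072 with the block). Pole, the leading-strand polymerase, did not overlap by a small margin, 159 to 172 CPM against 149 to 158 CPM, with a log2 fold change of -0.10 (SE 0.09). Pold1, the catalytic subunit of polymerase delta, had a higher mean in S138A (111 ± 14.6 and 126 ± 22.0 CPM), with overlap and a log2 fold change of 0.18 (SE 0.16). Pola1 (-0.14) and Pola2 (-0.01), subunits of polymerase alpha, had changes below their SEs of 0.17 and 0.10.

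The sliding clamp, its loader and the enzymes that join fragments had lower S138A means for 7 of 8 genes. Pcna, the clamp, was at 452, 423 and 346 CPM in wild-type and at 352, 371 and 289 CPM in S138A. Wild-type 3 lay below S138A A and B, so the groups overlapped. Within the sets the log2 ratios were close, -0.28 and -0.26, and the log2 fold change was -0.27 (SE 0.14, edgeR adjusted p = 0.454, and 0.030 with the block). The table also has rows for Pcna pseudogenes, between which reads may have been split. Rfc1, the large loader subunit, was at 140, 130 and 144 CPM and at 125, 127 and 126 CPM, without overlap, with a log2 fold change of -0.13 (SE 0.09). The smaller loader subunits Rfc2, Rfc3, Rfc4 and Rfc5 overlapped and had log2 fold changes between -0.09 and -0.19. Fen1, the flap nuclease, had -0.11 (SE 0.21), and 78.8% of its exon bases are shared with Gm10143 on the opposite strand, so its counts are uncertain. Lig1, which seals the fragments, was the 1 gene of the 8 with a higher mean, 108 ± 7.30 and 116 ± 6.63 CPM (SD, n = 3), a log2 fold change of 0.10 (SE 0.10).

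All 4 nucleotide genes had lower means in S138A. Tk1, the thymidine kinase of the salvage pathway, was at 43.4, 45.5 and 64.3 CPM in wild-type and at 37.3, 37.6 and 41.6 CPM in S138A. The groups did not overlap, but wild-type 3 was far above the other wild-type libraries. The log2 fold change was -0.40 (SE 0.17, edgeR adjusted p = 0.353, and 0.035 with the block), with log2 ratios of -0.25 in the 4 libraries and -0.63 between wild-type 3 and S138A C. Rrm1 and Rrm2, the large and small subunits of ribonucleotide reductase, had log2 fold changes of -0.11 (SE 0.12) and -0.15 (SE 0.13). Tyms, the thymidylate synthase, had -0.07 (SE 0.22). These 3 overlapped.

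Among cyclin E, its kinase and the activating E2F genes, Cdk2 was lower in S138A and E2f2 had the highest log2 fold change of the 44. Cdk2 was at 109.6, 106 and 109 CPM in wild-type and at 84.8, 83.6 and 88.5 CPM in S138A. The spread within each genotype was small and the groups did not overlap. The log2 fold change was -0.34 (SE 0.08), with an edgeR adjusted p of 0.199, of 0.016 with the block and of 0.002 by DESeq2, and it was -0.35 and -0.30 within the 2 sets. E2f2 was at 28.7, 27.9 and 26.0 CPM in wild-type and at 36.0, 36.3 and 30.2 CPM in S138A. All S138A libraries were above wild-type, with a log2 fold change of 0.31 (SE 0.12, edgeR adjusted p = 0.313, and 0.035 with the block).

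Ccne1, which encodes cyclin E1, was at 305, 326 and 247 CPM in wild-type and at 278, 272 and 181 CPM in S138A. The groups overlapped because wild-type 3 was low. Its log2 fold change was -0.26 (SE 0.19, edgeR adjusted p = 0.577, and 0.043 with the block). Ccne2, the second cyclin E gene, was at 21.1 ± 2.42 and 17.3 ± 4.65 CPM (SD, n = 3), with a log2 fold change of -0.28 (SE 0.22, edgeR adjusted p = 0.603). Per kilobase, Ccne1 was 20.8 times Ccne2 in wild-type and 21.3 times in S138A. E2f1 was at 34.1, 40.2 and 60.4 CPM in wild-type and at 35.4, 38.5 and 66.0 CPM in S138A. It was highest in wild-type 3 and S138A C and similar between genotypes, with a log2 fold change of 0.05 (SE 0.30). E2f3 overlapped as well, with -0.17 (SE 0.21).

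The 3 histone supply genes overlapped between genotypes. Slbp, which binds the stem loop of histone mRNA, had a log2 fold change of -0.18 (SE 0.11). Chaf1b and Chaf1a, subunits of the chromatin assembly factor CAF-1, had -0.19 (SE 0.14) and 0.12 (SE 0.15). Exons of Chaf1a share 52.5% of their bases with Ubxn6 on the opposite strand, so its counts are uncertain.

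**Figure D5:**
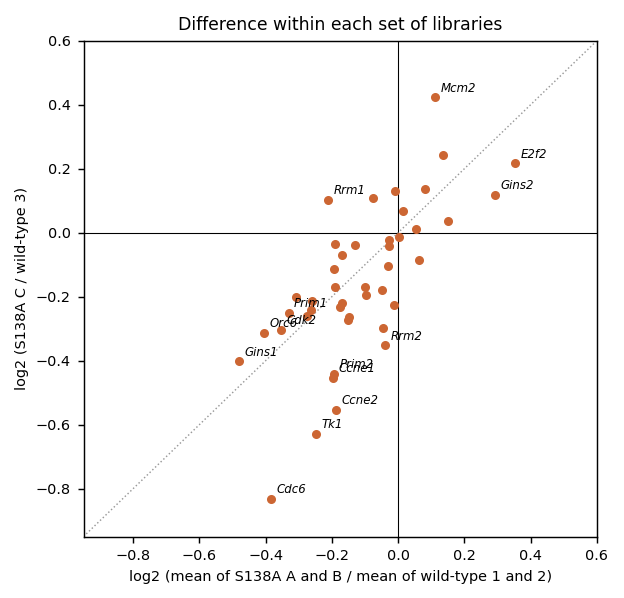
Log2 ratio of S138A C to wild-type 3 (vertical axis) against that of the means of S138A A and B to wild-type 1 and 2 (horizontal axis), with 1 point for each of the 44 genes and the dotted line at equal ratios. Most points, 31 of 44, lie in the lower left part, with Cdc6 lowest and Mcm2 and E2f2 in the upper right.

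Wild-type 3 and S138A C were both below the mean of the other 2 libraries of their own genotype for 21 of the 44 genes and both above it for 14. Over all 16023 genes tested these counts were 6417 and 6305. E2f1, Mcm5, Ccne1 and Fen1 show this in the values above or in the plot of all genes by library.

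Other genes of the same processes were counted in 3 lists, to be read against all genes tested, of which 47.6% had lower means, 10.9% were lower and 11.3% higher without overlap, and 9.13% were lower and 10.7% higher with the block. Of 36 other replication factors, 31 had lower means in S138A, 6 were lower and 0 higher without overlap, and 7 were lower and 0 higher with the block, with a median log2 fold change of -0.12. Lower in both library sets were 20 (55.6%, against 33.9% of all genes), and 0 were higher in both (against 36.1%). The sign agreed between the sets for 55.6% of the 36, against 70.0% of all genes. Atad5, which unloads the clamp, was at 114, 109 and 116 CPM in wild-type and at 85.5, 82.7 and 74.9 CPM in S138A. Its log2 fold change was -0.48 (SE 0.09, edgeR adjusted p = 0.187, and 0.011 with the block). Rpa1, which coats single-stranded DNA, had -0.40 and Orc4, an ORC subunit, had -0.41, both without overlap and with block adjusted p of 0.030 and 0.031. Tipin (-0.37), of the fork protection complex, and Top2a (-0.30), a topoisomerase, were called with the block.

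Of 22 further genes of nucleotide supply and S-phase chromatin, 16 had lower means, 8 were lower and 3 higher without overlap, and 7 were lower and 0 higher with the block, with a median of -0.17. The 3 of 22 higher without overlap are near the 11.3% of all genes. Shmt1, of the folate cycle, had a log2 fold change of -0.53 (SE 0.12, edgeR adjusted p = 0.191, and 0.009 with the block). Nasp, a histone chaperone, had -0.36, Hells, a chromatin remodeler, -0.31, and Cdca7 -0.27, all 3 called with the block. Of 35 other G1/S regulators, 23 had lower means, 3 were lower and 2 higher without overlap, and 6 were lower and 2 higher with the block, with a median of -0.05. The 3 of 35 lower without overlap are no more than the 10.9% of all genes would give. Cdkn1a, the inhibitor p21 of CDK2, was at 35.6, 40.0 and 77.8 CPM in wild-type and at 62.4, 58.8 and 112 CPM in S138A. The groups overlapped, and the log2 fold change was 0.60 (SE 0.37, edgeR adjusted p = 0.511, and 0.008 with the block). Ccnd1 (-0.65) and Ccnd2 (-0.70), which encode D-type cyclins, overlapped and had a block adjusted p of 0.010 each, and Skp2 (-0.45), of the ubiquitin ligase for p27, had 0.013. Fbxo5 (-0.25) and Cdc25a (-0.24) did not overlap and had block adjusted p of 0.055 and 0.072.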

How the data were processed

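PolyA RNA of 3 wild-type and 3 S138A libraries was sequenced with a stranded kit from 500 ng of RNA each. Per the labels, the authors called bases with CASAVA 1.8.4 and aligned reads to mm9 (NCBIM37) with TopHat2 2.0.11, and they deposited whole-number counts for each gene, made with featureCounts. Its version, strand setting and treatment of multiply mapped reads are not given in the sources used here. The table has 0 spike-in rows, 0 rows naming no gene and 0 unused columns. The paper's methods describe the cells and not this experiment. The S138A columns carry no replicate label and are named A, B and C here.

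The 44 genes, the further lists and the tests were chosen with earlier results of these data known. All 44 genes are named, and of each further list up to 3 genes of smallest p in the test and up to 3 with the block. Genes were kept by filterByExpr (minimum count 10, minimum total count 15). Counts were tested in R 4.3.3 with edgeR 4.0.16 (TMM, quasi-likelihood test, Benjamini-Hochberg adjustment over 16023 genes, threshold 0.05), and alternatively with DESeq2 1.42.0 and limma-voom (limma 3.58.1). All adjusted p-values are from edgeR unless DESeq2 is named. Scripts were tested on simulated data. Figures were drawn with Python 3.11.15 and matplotlib 3.10.9. Transcript lengths and exon overlaps came from GENCODE on GRCm38, another build than that of the counts.

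Pairing was checked by the correlation of deviations from the group means. Libraries with the same final digit in the column name gave 0.530, 0.493 and 0.753, but crossing the first 2 gave 0.515 and 0.526, so these cannot be told apart. The pairing comes from column names, not from a stated design.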

Additional observations from a re-analysis of the deposited data

How the results depend on the processing

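With the replicate block, edgeR called 1 of the 44 genes higher and 11 lower, and 1717 and 1463 of all genes, against 0 in each count without it. The 4 libraries without wild-type 3 and S138A C gave 2 and 13 of the 44 genes and 2463 and 2293 of all genes, and a term for those 2 libraries gave 2 and 13, and 2338 and 2080. The 12 genes called with the block were called in both of these fits. The split was taken from these same data and the fits reuse the block's libraries, so this is no independent check. DESeq2 called 4 of the 44 genes lower, and 420 of all genes higher and 377 lower. Without a filter beyond 1 count, 2 of all genes were higher and 2 lower. With single libraries left out, calls over all genes ran from 0 to 59 higher and from 0 to 20 lower, and both highest counts came without S138A C. None of the 44 genes was called then. The cause was not tested. Non-overlapping genes numbered 6 higher and 26 lower in the 4 libraries, which have fewer values to separate (5636 and 5394 of all 16055 genes). They were 4 higher and 8 lower with library totals only (2434 and 1185 of all genes). With 1 library left out they ran from 2 to 4 higher and from 12 to 23 lower. Over all genes these counts ran from 2106 to 3810 higher and from 2135 to 3846 lower. The 23 came without wild-type 3, where 3810 of all 16344 genes were higher and 3846 lower. The median of the 44 genes was -0.052 with library totals only, and it stayed below 0 in all alternatives. That of all genes was 0.045 with upper-quartile factors, 0.0042 in the 4 libraries, 0.10 with library totals only and -0.012 to 0.028 with 1 library left out. The summed CPM ratio was 0.999 with library totals only. The replicate block by final digit changed no direction among the 44 genes, and other pairings were not fitted.

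The sign changed in at least 1 alternative for 11 genes, with main log2 fold changes between -0.11 and 0.05, and in none for the other 33. With library totals only, values were 0.081 for Mcm3, 0.030 for Mcm4, 0.059 for Mcm7, 0.051 for Gins3, 0.073 for Pola2 and 0.013 for Tyms. With upper-quartile factors they were 0.025 for Mcm3, 0.0026 for Mcm7 and 0.015 for Pola2. Mcm3 was at 0.0047 with the 1 CPM filter and at 7.4e-05 in the 4 libraries, where E2f1 was at -0.010. With 1 library left out, ranges were -0.040 to 0.027 for Mcm3, -0.11 to 0.19 for Mcm5, -0.077 to 0.020 for Mcm7, -0.037 to 0.077 for Cdt1, -0.029 to 0.10 for Cdc45, -0.13 to 0.065 for Gins3, -0.054 to 0.023 for Pola2, -0.24 to 0.080 for Fen1, -0.21 to 0.12 for Tyms and -0.29 to 0.33 for E2f1. The cause was not tested.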

Other observations

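Genes of mitosis, which follow replication in the cycle, were counted in the same way in a list of 30. Of these, 18 had lower means in S138A, 4 were lower and 3 higher without overlap, and 2 were lower and 1 higher with the replicate block, with a median log2 fold change of -0.06. Over all genes tested, 47.6% had lower means, 10.9% were lower and 11.3% higher without overlap, and 9.13% were lower and 10.7% higher with the block, so the counts without overlap and with the block are near or below the shares of all genes. Ccnf, which encodes cyclin F, was at 219, 203 and 211 CPM in wild-type and at 239.8, 246 and 264 CPM in S138A. All S138A libraries were above wild-type, with a log2 fold change of 0.24 (SE 0.09, edgeR adjusted p = 0.302, and 0.045 with the block). Foxm1, a transcription factor of mitotic genes, did not overlap either and had 0.22 (SE 0.10, edgeR adjusted p = 0.366). Kif23, a kinesin of cytokinesis, had -0.25 (SE 0.12) without overlap. Aurkb, the aurora B kinase, and Hmmr, a spindle protein, overlapped and had -0.29 and -0.24, with block adjusted p of 0.029 and 0.045.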
